A study of Mus musculus with 18 samples.

Results

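Mitochondrial biogenesis, the making of new mitochondrial mass, is directed from the nucleus by a small set of transcriptional regulators, and 6 of them were followed across the prostates of Elac2 mutant mice. They were Ppargc1a, Ppargc1b, Esrra, Nrf1, Gabpa and Tfam, taken by symbol, which gave 6 of the 55469 gene entries of each deposited table. All 6 passed the filter on low values, a mean normalized count of at least 10, in each of the 4 comparisons. Ventral and lateral lobes were taken from male mice on the strain labelled C56NL/6N, and their RNA was sequenced in 18 libraries, 3 in each of 6 groups. The groups were wild type (WT, labelled ELAC2+/+), KO (ELAC2-/-) and A537T (ELAC2A537T), each at 10 and at 30 weeks of age. KO mice lacked exon 8 of Elac2, the gene of the tRNA 3′-processing endonuclease ELAC2, only where the prostate epithelial probasin promoter drove Cre recombinase, so cells without Cre kept the gene. A537T mice carried a threonine in place of an alanine (A537T) on both alleles in the whole body. No mouse of these groups carried the TRAMP transgene, and all were fed chow.

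PGC-1α and PGC-1β, the proteins of Ppargc1a and Ppargc1b, are coactivators that bind no DNA themselves and act through transcription factors. One partner is the orphan nuclear receptor ERRα, encoded by Esrra, which drives genes of fatty acid oxidation, the tricarboxylic acid cycle and the respiratory chain. Others are NRF1 and GABPA, the latter also called NRF2α, which bind promoters of many nuclear-encoded respiratory chain genes and that of Tfam. TFAM enters the mitochondrion, where it packages mitochondrial DNA and starts its transcription. PGC-1α and ERRα are most abundant in tissues with a high oxidative demand, such as skeletal muscle, heart and brown fat.

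Depth ran from 6569642 to 11225281 recovered reads per library (median 8586877), so that the regulators were counted with 12 to 351 reads in a library. Elac2 reads were present in every library. In KO the 10-week libraries had normalized counts of 119, 111 and 115, against 124, 142 and 166 for WT (log2 fold change -0.31, adjusted p = 0.325, limma). The 30-week KO libraries had 98.4, 151 and 122, against 149.6, 153 and 194 for WT (log2 fold change -0.43, adjusted p = 0.478, limma). The A537T libraries had 173, 165 and 158 at the younger and 120.5, 189 and 114 at the older age, which differed from WT by 0.19 and -0.23 on the log2 scale (adjusted p = 0.796 and 0.658, limma). A count per gene cannot tell a transcript that lacks exon 8, or carries the point mutation, from an intact one. Markers of luminal prostate epithelium took 0.478 to 11.8% of normalized counts, with 0.478 to 3.37% in KO and 3.24 to 10.9% in WT at 10 weeks. The 10 markers did not move together in that comparison. Their log2 fold changes ran from -4.80 to 1.25, with 4 above 0, 6 below and a median of -0.07. The libraries also held RNA of neighbouring tissues in unequal amounts. The 28 skeletal muscle markers took 4.07 to 13.2% of the counts in WT at 10 weeks, 0.0597 to 2.13% in KO, 1.61 to 4.53% in A537T, and at most 0.0752% at 30 weeks. The 8 seminal vesicle markers took 6.55 to 10.3% in KO at 10 weeks against 0.000808 to 4.64% in WT and 0.0374 to 0.191% in A537T. At 30 weeks they were near 0 in WT (at most 0.000335%), in library 5AF of KO and in 8AF of A537T, and took 6.32 and 8.53% in the other KO libraries and 7.24 and 9.17% in the other A537T libraries. These shares are given beside the results they move with. In bulk tissue, fewer cells of a type and less RNA per cell cannot be told apart.

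None of the regulators reached an adjusted p under 0.05 in limma in any of the 4 comparisons, and neither did any other gene (0% of 14729 to 15131 genes tested in each). The orphan receptor gene Esrra had the smallest p of the 6 in each comparison. Its mean was below WT in both mutant lines at both ages, with log2 fold changes between -0.35 and -0.78, and its groups did not overlap in 3 of the 4 comparisons. Those were KO at 10 weeks and A537T at 10 and 30 weeks, where 14.3, 6.34 and 9.40% of all genes were lower without overlap. Ppargc1a was lower without overlap in KO at 10 weeks only, with a log2 fold change of -0.95, while Nrf1, Gabpa and Tfam had log2 fold changes of 0.32 or less in size in every comparison. At an unadjusted p under 0.05 (limma), 2 of the 6 members, both lower, passed in KO at 10 weeks, where 19.4% of all genes did. That share was 0 of 6 in A537T at 10 weeks against 6.43% of all genes, 1 of 6 in KO at 30 weeks against 11%, and 1 of 6 in A537T at 30 weeks against 13.6%. On recovered reads, edgeR called 0 genes at an adjusted p under 0.05 in every comparison. DESeq2 on the same reads called 714 and 280 genes in KO and 90 and 473 in A537T at 10 and 30 weeks, and of the regulators it called Esrra in KO at 10 weeks and in A537T at 30 weeks.

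**Figure D1:**
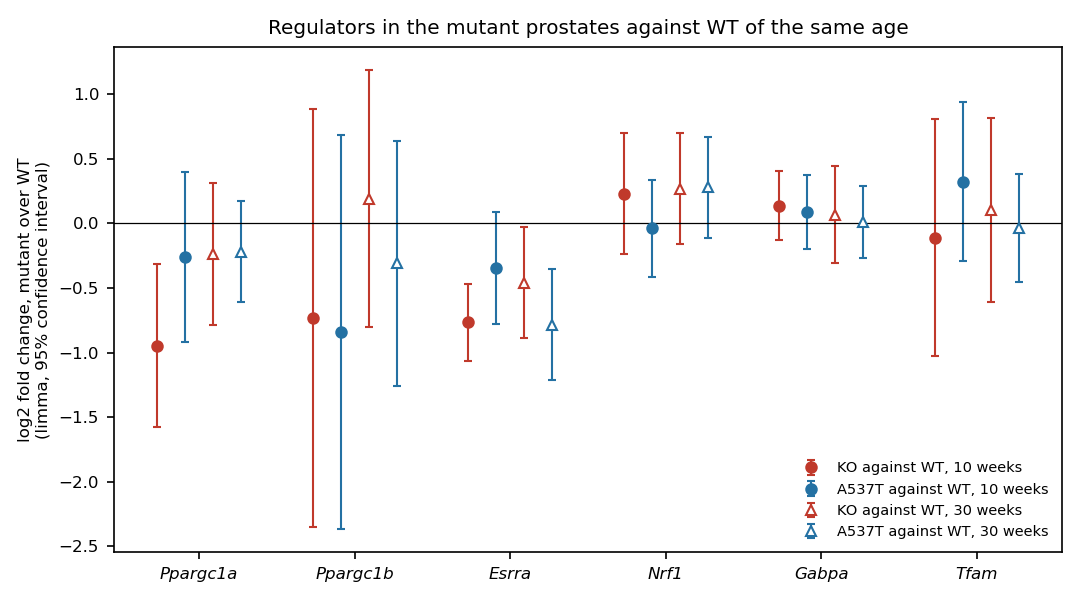
Log2 fold change of each regulator (mutant over WT of the same age and table, limma on log2(normalized count + 1)) with its 95% confidence interval, for KO in red and A537T in blue, at 10 weeks as filled circles and at 30 weeks as open triangles. The intervals of Esrra lie below 0 in 3 of 4 comparisons and those of Ppargc1a in 1, and all others include 0.

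Per length, Gabpa, Esrra and Tfam had the highest median levels and the coactivators the lowest. The median over the 18 libraries, in reads per kilobase of exon scaled to the library total (RPKM), was 5.79 for Gabpa (range 4.57 to 7.12), 4.69 for Esrra (3.32 to 7.54), 3.27 for Tfam (2.21 to 6.87), 1.66 for Nrf1 (1.25 to 2.33), 1.64 for Ppargc1a (1.05 to 2.50) and 0.654 for Ppargc1b (0.432 to 2.65). The ranges of neighbours in this order overlapped in every case. With the length of the longest annotated transcript in place of all exons, the medians were 8.28 for Esrra, 6.60 for Gabpa, 4.22 for Nrf1, 3.49 for Tfam, 1.67 for Ppargc1a and 0.714 for Ppargc1b, so only the place of the coactivators at the bottom was the same in both orders. Gabpa was the steadiest, with a highest library at 1.56 times the lowest, and Ppargc1b the most variable, with 6.12 times. This ratio was 1.87 for Nrf1, 2.27 for Esrra, 2.39 for Ppargc1a and 3.10 for Tfam.

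**Figure D2:**
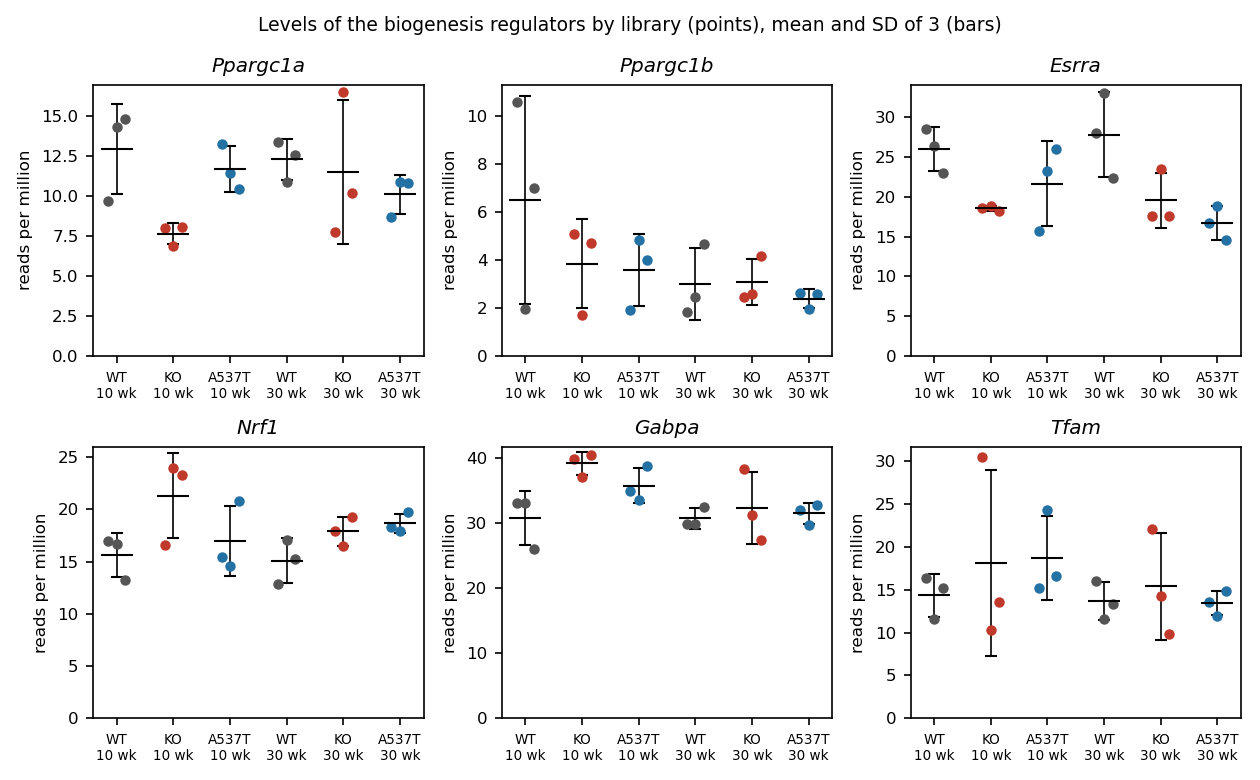
RPM (reads scaled to the library total) of each regulator in the 18 libraries (points, 3 per group, WT grey, KO red, A537T blue), with the mean and SD of each group as bars; WT points are the mean of the 2 tables that hold them. KO points of Ppargc1a and Esrra lie below all WT points at 10 weeks, and 1 library stands high for Tfam in KO at each age.

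Ppargc1a (ENSMUSG00000029167.13) lies on chromosome 5 of GRCm38 (51454250 to 51567726, reverse strand). At 10 weeks its normalized count was 78.3 in 10AF, 122 in 11AF and 154 in 12AF of WT, and 59.3 in 13AF, 56.2 in 14AF and 60.6 in 15AF of KO. All KO libraries were below the lowest WT library and close to each other, whereas the WT libraries were spread widely. The means were 118 ± 38.1 (SD, n = 3) in WT and 58.7 ± 2.25 in KO, a log2 fold change of -0.95 ± 0.27 (SE) or 0.519 of the WT level, with an unadjusted p of 0.00962 and an adjusted p = 0.183 (limma). Of all genes tested, 14.3% were lower in KO without overlap and 11.7% higher, beside 2 and 1 of the 6 regulators. The WT libraries followed the same order in Ppargc1a as in the share of skeletal muscle markers, and with a muscle score in the model the log2 fold change was -0.83 (adjusted p = 1.000, limma). All 28 muscle markers were lower in KO at 10 weeks, 27 of them without overlap, so the score and genotype ran together. A fit on 6 libraries cannot tell them apart. Within KO, 14AF held the most muscle markers (2.13%) and the lowest Ppargc1a. In WT, Ppargc1a also ran against the share of seminal vesicle markers, which was 4.64, 1.76 and 0.000808% in 10AF, 11AF and 12AF. That share was 6.55 to 10.3% in KO, and its part in the difference was not tested at this age. Without library 10AF the log2 fold change of Ppargc1a was -1.21 (adjusted p = 0.0214, limma), in a fit that called 2886 of 15044 genes.

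In the other comparisons the Ppargc1a groups overlapped. In A537T at 10 weeks it was 118, 98.9 and 81.7 normalized counts, against 81.8, 126 and 159 for the same WT libraries in the table of that line, a log2 fold change of -0.26 (95% confidence interval -0.92 to 0.40). The sign turned to 0.32 with the muscle score in the model. At 30 weeks, when muscle markers were low in every library, the WT libraries had 125, 108 and 117 and the KO libraries 73.8, 135.8 and 96.5, a log2 fold change of -0.24 (-0.79 to 0.32), and A537T had 76.3, 91.6 and 100.8 against 111, 95.2 and 105, a log2 fold change of -0.22 (-0.61 to 0.17). The highest KO value at 30 weeks was that of 5AF, the KO library with almost no seminal vesicle RNA, and the sign turned to 0.17 with a seminal vesicle score in the model.

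Ppargc1b (ENSMUSG00000033871.14, chromosome 18, 61298136 to 61400431, reverse strand) was the rarest and least even member. Among WT mice at 10 weeks it was 81.2 normalized counts in 10AF and 69.4 in 12AF but 15.8 in 11AF. KO at that age had 37.8, 14.1 and 35.4, and A537T had 17, 41.9 and 31.3, and all lay within the WT range of their own table except 14.1 in KO and 17 in A537T, which were just under library 11AF at 15.8 and 18.2. The log2 fold changes of -0.73 ± 0.68 (SE) and -0.84 ± 0.65 had adjusted p = 0.554 and 0.777 (limma). At 30 weeks Ppargc1b was 15.3, 21.9 and 38.6 in WT and 23.4, 21.3 and 39.5 in KO. A537T had 23.1, 16.4 and 24.1, against 16.8, 24.1 and 43.5 for the same WT libraries in the table of that line. KO differed from WT by 0.19 and A537T by -0.31 on the log2 scale (adjusted p = 0.887 and 0.752, limma). The intervals of all 4 comparisons were wide, the narrowest from -1.26 to 0.64.

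The balance of the coactivators was read within each library, where it does not depend on scaling between libraries. Ppargc1a exceeded Ppargc1b per kilobase of exon in 16 of the 18 libraries, the exceptions being 10AF of WT (a ratio of 0.583 in the KO table and 0.531 in the A537T table) and 13AF of KO (0.949). With the length of the longest annotated transcript, 15AF of KO was an exception as well, at 1.25 RPKM for Ppargc1a and 1.29 for Ppargc1b. The mean log2 ratio was 0.63 ± 1.51 (SD, n = 3) in WT and 0.42 ± 0.75 in KO at 10 weeks, and 1.59 ± 0.72 and 1.15 ± 0.72 at 30 weeks. In the tables of the other line it was 0.48 ± 1.50 in WT and 1.08 ± 0.86 in A537T at 10 weeks, and 1.27 ± 0.73 and 1.37 ± 0.38 at 30 weeks. The differences of -0.21, 0.60, -0.44 and 0.10 had p = 0.8, 0.5, 0.6 and 0.9 in two-sided exact permutation tests (adjusted p = 0.9 in each of 4), where 3 libraries against 3 cannot give a p under 0.1.

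**Figure D3:**
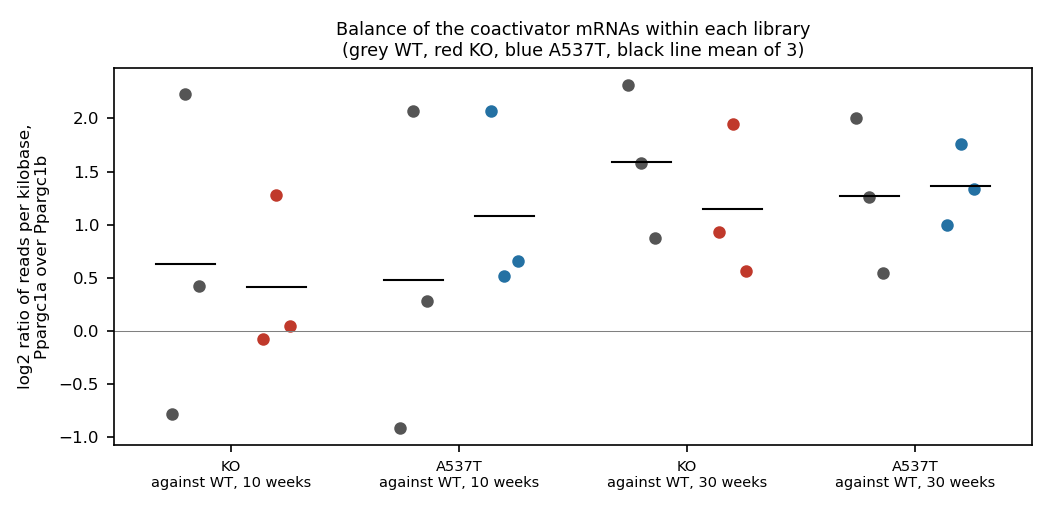
Log2 ratio of Ppargc1a to Ppargc1b reads per kilobase of exon in each library, by comparison (WT grey, KO red, A537T blue, lines at the mean of 3); WT libraries appear in both tables of their age. The WT and mutant points are intermixed in all 4 comparisons, and the widest spread is among the WT libraries at 10 weeks.

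Esrra (ENSMUSG00000024955.15) lies on chromosome 19 of GRCm38 (6910977 to 6921813, reverse strand). In KO at 10 weeks it was 138 in 13AF, 153 in 14AF and 137 normalized counts in 15AF, against 242, 237 and 252 in the WT libraries 10AF to 12AF. The groups were each tight and far apart, with means of 143 ± 9.05 (SD, n = 3) and 244 ± 7.51. Of all genes, 14.3% were lower in KO without overlap in this comparison and 11.7% higher. The log2 fold change was -0.77 ± 0.13 (SE), or 0.588 of the WT level, which gave the gene rank 17 by p among 15089 genes (unadjusted p = 0.000561, adjusted p = 0.183, limma). In DESeq2 on recovered reads the same difference had an adjusted p = 0.00396, and in edgeR an adjusted p = 0.206. Without 10AF the adjusted p from limma was 0.0239 with a log2 fold change of -0.77. With the muscle score in the model the log2 fold change was -0.62 (unadjusted p = 0.0351, adjusted p = 1.000, limma). As for Ppargc1a, the score and genotype ran together here, and the fit cannot tell them apart.

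Among the WT libraries 10AF, 11AF and 12AF, whose muscle share was 4.07, 6.81 and 13.2%, Esrra was 28.6, 26.4 and 23.0 in RPM (reads scaled to the library total), an order opposite to that of muscle RNA and not seen in the normalized counts. All KO libraries at 10 weeks held seminal vesicle RNA, as 10AF and 11AF of WT also did in smaller amount, and its part in the difference was not tested at this age. In A537T at 10 weeks, with little seminal vesicle RNA, Esrra was 140.4, 202 and 204 against 229, 220.5 and 235 in WT. The groups did not overlap, as in 6.34% of all genes for lower values and 5.58% for higher ones, but 16AF stood well below the other A537T libraries. The log2 fold change was -0.35 ± 0.18 (SE), with an adjusted p = 0.749 (limma), and -0.17 without 16AF.

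At 30 weeks Esrra was 147, 159 and 136 normalized counts in A537T (7AF to 9AF) against 255, 317 and 202 in WT (1AF to 3AF). Every A537T library was below every WT library, as in 9.40% of all genes, while 9.18% were higher without overlap. The log2 fold change was -0.78 ± 0.18 (SE), or 0.581 of WT, at rank 201 of 14789 genes (unadjusted p = 0.00340, adjusted p = 0.246, limma). DESeq2 on recovered reads gave an adjusted p = 0.0258 and edgeR 0.226. With a seminal vesicle score in the model the log2 fold change was -0.66 (adjusted p = 0.655, limma). Without 8AF, the A537T library with almost no seminal vesicle RNA, it was -0.84 (adjusted p = 0.0542, limma). The 10 leukocyte markers took 0.0220 to 0.0515% of counts in these A537T libraries and 0.0127 to 0.0141% in WT, most in 8AF, and their part in the difference was not tested.

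In KO at 30 weeks Esrra was 167, 194 and 166 against 243, 301 and 192 in WT. Here the groups overlapped, since 5AF at 194, the KO library with almost no seminal vesicle RNA, was just above the lowest WT library. Of all genes, 8.41% were lower and 7.92% higher without overlap in this comparison, and none of the 6 regulators was among them. The log2 fold change was -0.46 ± 0.18 (SE), with an unadjusted p of 0.0408 and an adjusted p = 0.438 (limma). It was -0.31 with the seminal vesicle score in the model, -0.53 without 5AF and -0.30 without the WT library 2AF. Between 10 and 30 weeks the effect on Esrra differed by 0.31 in KO and by -0.44 in A537T. The p was 0.480 and 0.355 (exact permutation of genotype within age, adjusted p = 0.81 over 12 tests). Genotype was relabelled at both ages, so an effect that the ages share widens the permuted spread. The test therefore cannot say whether the effects at both ages are equal.

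On the RPM scale, the 6 groups ranked in Esrra as WT at 30 weeks (27.8 ± 5.35, SD, n = 3), WT at 10 weeks (26.0 ± 2.78), A537T at 10 weeks (21.7 ± 5.31), KO at 30 weeks (19.6 ± 3.43), KO at 10 weeks (18.6 ± 0.28) and A537T at 30 weeks (16.7 ± 2.14). Neighbours in this order differed by less than the larger of their SDs. The skeletal muscle and seminal vesicle marker genes were then left out of the totals. The means were 28.9, 20.5 and 22.3 in WT, KO and A537T at 10 weeks, and 27.8, 20.5 and 17.6 at 30 weeks. The SD of A537T at 10 weeks was 5.18.

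**Figure D4:**
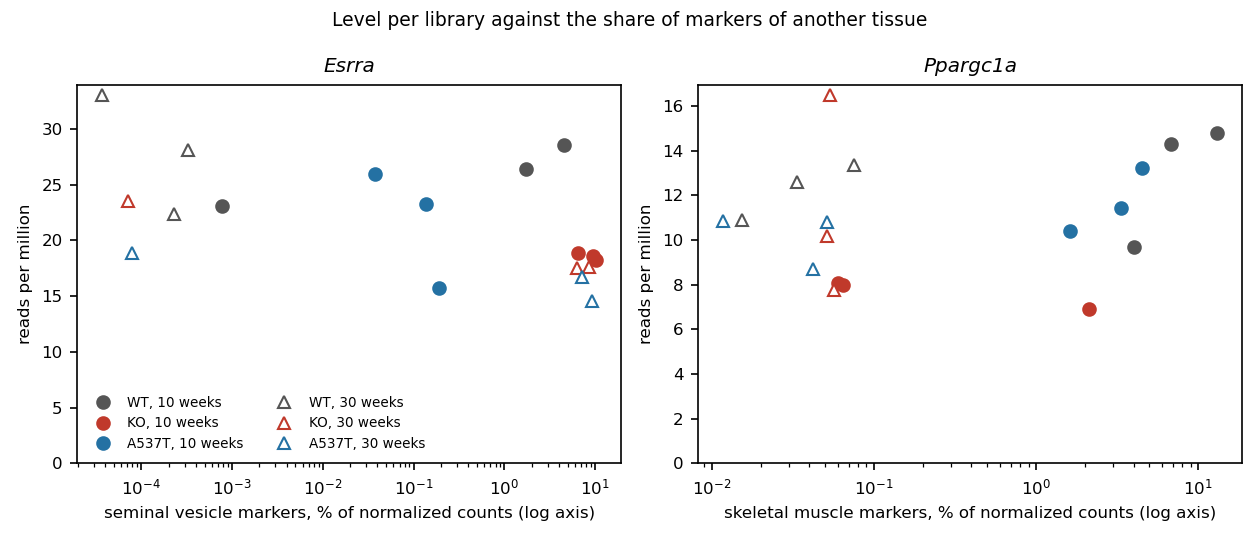
RPM of Esrra against the share of seminal vesicle markers (left) and of Ppargc1a against the share of skeletal muscle markers (right), 1 point per library, both shares in percent of normalized counts on a log axis, circles at 10 weeks and triangles at 30 weeks. The 7 mutant libraries above 6% seminal vesicle markers hold 14.6 to 18.8 RPM of Esrra. So do 16AF (15.7) and 8AF (18.8), with little of that RNA. The WT libraries 10AF (28.6) and 11AF (26.4) hold more Esrra and also contain seminal vesicle RNA, in smaller share. In WT at 10 weeks Ppargc1a is highest where muscle markers are highest. In KO at that age it is lowest in 14AF, the KO library with the most muscle markers (2.13%).

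The stretch before the transcription start of Esrra holds a match to the core motif of another member, NRF1, and is shown because Esrra had the smallest p of the regulators in each comparison. Promoters were taken as the 250 bases before the RefSeq start on GRCm38.p6, found for 5 of the 6 genes, with 2 starts for Nrf1. They were searched on both strands for the NRF1 core GCGCNTGCG, the ETS site CCGGAAG bound by GABPA, the ERR half-site AAGGTCA and the cAMP response element TGACGTCA. Of 32851 promoters of that length, 5.19%, 6.91%, 4.08% and 1.55% held these motifs. The matches were 1 NRF1 core in Esrra, 1 ETS site in Tfam and 1 in Gabpa itself, and none in the windows of Ppargc1a and Nrf1. The window of Esrra (chr19:6921809-6922058, reverse strand) and that of Tfam (chr10:71238045-71238294, reverse strand) are given 5′ to 3′ in the direction of the gene, with the match in capitals, on the opposite strand in Esrra (95 to 87 bases before the start) and on the same strand in Tfam (47 to 41 bases before it):
Esrra: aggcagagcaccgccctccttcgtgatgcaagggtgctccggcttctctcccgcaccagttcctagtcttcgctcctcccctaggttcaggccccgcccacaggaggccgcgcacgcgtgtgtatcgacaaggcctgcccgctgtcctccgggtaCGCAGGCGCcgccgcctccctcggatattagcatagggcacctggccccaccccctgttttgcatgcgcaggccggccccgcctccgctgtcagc
Tfam: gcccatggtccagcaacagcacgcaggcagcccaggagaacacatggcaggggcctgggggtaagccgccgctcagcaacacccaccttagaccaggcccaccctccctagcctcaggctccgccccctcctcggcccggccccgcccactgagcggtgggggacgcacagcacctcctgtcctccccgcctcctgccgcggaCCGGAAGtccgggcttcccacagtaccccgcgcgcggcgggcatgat
A match is a string of letters and says nothing of binding in these mice.

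Nrf1 (ENSMUSG00000058440.14, chromosome 6, 30047988 to 30153458, forward strand) was even in WT at 10 weeks, with 135, 142 and 137 normalized counts. KO had 124, 196 and 175, on both sides of WT, and A537T had 138, 127 and 163 against 145, 149 and 144. The log2 fold changes were 0.23 ± 0.20 (SE) and -0.04 ± 0.16. At 30 weeks the counts were 113, 159 and 134 in WT, 171, 136 and 183 in KO, and 161, 151 and 184 in A537T, with log2 fold changes of 0.27 ± 0.18 and 0.28 ± 0.17. Both mutant means were above WT at 30 weeks with overlapping groups, and the smallest adjusted p of the 4 comparisons was 0.480 (limma).

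Gabpa (ENSMUSG00000008976.16, chromosome 16, 84834925 to 84863779, forward strand) encodes the DNA-binding subunit of an ETS factor that works as a complex with GABPB. In KO at 10 weeks it was 296, 302 and 304 normalized counts against 266, 283 and 270.3 in WT, higher in all KO libraries without overlap. The difference was small, with a log2 fold change of 0.14 ± 0.11 (SE) and an adjusted p = 0.490 (limma), and 0.35 when libraries were scaled to the same total, a scaling that moved the median of all genes to 0.20. A537T at 10 weeks had 312, 291 and 304 against 279.7, 292 and 280.2. At 30 weeks Gabpa was 265, 279 and 286 in WT, 364, 258 and 259 in KO, and 280.2, 251 and 306 in A537T. The log2 fold changes in these 3 comparisons were 0.09, 0.07 and 0.01, with 95% confidence intervals from -0.31 at the lowest to 0.44 at the highest.

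Tfam (ENSMUSG00000003923.14, chromosome 10, 71225464 to 71238280, reverse strand) varied more between libraries of 1 group than between group means. At 10 weeks it was 139.9, 105 and 167 in WT and 227, 84.3 and 102 in KO, so that 13AF was the highest and 14AF the lowest of the 6. A537T had 136, 210.3 and 130.1 against 129.5, 95.1 and 153. At 30 weeks WT had 143, 109 and 118, KO had 210.3, 117.5 and 93.0, and A537T had 119, 101 and 138. The log2 fold changes were -0.11 ± 0.39 (SE) and 0.11 ± 0.30 in KO and 0.32 ± 0.26 and -0.03 ± 0.18 in A537T at 10 and 30 weeks, with adjusted p between 0.787 and 0.943 (limma). The sign in KO at 10 weeks depended on scaling and on single libraries, with 0.10 after scaling to the same total and -0.54 without 13AF.

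For no regulator was an effect that differs between the ages shown. The permutation test cannot show equal effects either, since its spread also holds any effect that the ages share. The difference of the log2 fold changes, 30 minus 10 weeks, ran from -0.07 for Gabpa to 0.92 for Ppargc1b in KO and from -0.44 for Esrra to 0.54 for Ppargc1b in A537T. The smallest p of the 12 tests was 0.145, for Nrf1 in A537T (exact permutation over 400 arrangements, adjusted p = 0.81). For Ppargc1a in KO, the effect of -0.95 at 10 weeks and of -0.24 at 30 weeks differed by 0.71 (p = 0.220, exact permutation, adjusted p = 0.81). Where 1 set of WT counts is given at 30 weeks it is that of the KO table. All comparisons of an age share their 3 WT libraries, so the values of KO and A537T stand side by side and are not independent.

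Partners and upstream controls of the regulators were described as a list of 35 genes, 34 of them tested in each comparison. None was called by limma. In KO at 10 weeks, 3 were higher and 8 lower at an unadjusted p under 0.05, which 19.4% of all genes passed, with a median log2 fold change of -0.08 beside -0.01 over all genes. The 3 with the smallest p and no overlap were Rxra, the retinoid X receptor that pairs with PPARs (-0.61), Mef2c, a myocyte enhancer factor (-2.47), and Prkaa2, an AMP-activated kinase subunit (-1.85). In WT, Mef2c was 70.6 to 180 RPM at 10 weeks and 5.51 to 8.19 at 30 weeks, when muscle markers were low. Prkaa2 was 63.7 to 129.6 RPM in WT at 10 weeks and 70.9 to 130.5 at 30 weeks. With the muscle score in the model 1 of the 34 was higher and none lower at an unadjusted p under 0.05, which 2.04% of all genes then passed, and the median was -0.09. The score ran together with genotype in KO at 10 weeks, so these counts cannot separate muscle RNA from genotype. Seminal vesicle RNA also differed between KO and WT at this age, and its part was not tested. In A537T at 10 weeks 2 of 34 were lower, beside 6.43% of all genes passing, and the genes named by that rule were Ppp3ca, a calcineurin subunit (-0.35), Atf2 (0.29) and Gabpb1, the partner of GABPA (0.39).

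At 30 weeks, 2 of the 34 partners were higher and 1 lower in KO, and 3 higher and 3 lower in A537T, at an unadjusted p under 0.05 that 11% and 13.6% of all genes passed, shares near those of the list. The deacetylase gene Sirt1, whose product acts on PGC-1α, and Mef2a were higher without overlap in both lines. Sirt1 had 107 ± 9.48 (SD, n = 3) normalized counts in WT and 161 ± 38.5 in KO, a log2 fold change of 0.56 (adjusted p = 0.422, limma), and 109.9 ± 9.63 and 146 ± 5.08 in A537T, a log2 fold change of 0.41 (adjusted p = 0.301, limma). Mef2a had log2 fold changes of 0.39 and 0.44. Esrrg, the gene of the related receptor ERRγ, was lower in KO, with 306 ± 16 in WT and 187 ± 41.5, a log2 fold change of -0.74 (adjusted p = 0.386, limma), and Rxra was higher in A537T (0.30). The corepressors Nrip1 and Ncor1, the most abundant of the list, lay within 0.12 of WT on the log2 scale in all 4 comparisons. With the seminal vesicle score in the model 4 partners were lower in KO and none differed in A537T at an unadjusted p under 0.05 (limma). These counts stand without the share of all genes passing in the same fits, so they cannot be set against the background.

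The machinery of mitochondrial DNA transcription and replication was a list of 21 genes, 20 tested in KO and 21 in A537T. At an unadjusted p under 0.05 (limma), KO had 2 lower genes and A537T had 1 at 10 weeks, while at 30 weeks 2 were higher in KO and 2 higher with 1 lower in A537T. All genes passed in 19.4, 6.43, 11 and 13.6%, so these counts are near or below the background. None passed the adjusted threshold, and the medians of -0.13, -0.15, 0.00 and -0.04 stood beside medians within 0.02 of 0 over all genes. In KO at 10 weeks the elongation factor gene Tefm (-1.35) and the single-strand binding protein gene Ssbp1 (-0.46) were lower, and the ligase gene Lig3, which did not pass, had 0.27. In A537T at 10 weeks the rule named Mterf2 (-0.83), Mterf1b (1.02) and Mterf1a (0.32), of which the last is a near copy of Mterf1b, so that their reads may be shared. At 30 weeks it named Mterf3 (0.66), Mterf4 (0.47) and Tfb2m (-0.23) in KO, and Lig3 (0.40), Polg2 (-0.60), the accessory subunit of the mitochondrial polymerase, and Top1mt (0.58) in A537T. Lonp1, the matrix protease that with Lig3 was the most abundant, had log2 fold changes between -0.20 and -0.02.

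Downstream targets, 27 nuclear genes of respiration, fatty acid oxidation and the mitochondrial membranes, had a median log2 fold change of -0.68 at 10 weeks and -0.05 at 30 weeks in KO, and of -0.48 and -0.07 in A537T, and the contrast between the ages was not tested. In KO at 10 weeks 18 of the 27 were lower and 1 higher at an unadjusted p under 0.05 (19.4% of all genes passed), and 24 had a log2 fold change below 0, beside a median of -0.01 over all genes. The mitofusin gene Mfn2 (-1.18), the haem synthesis gene Alas1 (-0.64) and Idh3a of the tricarboxylic acid cycle (-1.60) had the smallest p, and the abundant respiratory genes Cox4i1 and Atp5b both had -0.62. In A537T at 10 weeks 9 of the 27 were lower at that threshold (6.43% of all genes passed), with Acadm (-0.74), Alas1 (-0.48) and Acadvl (-0.59) named by the rule, and Cox4i1 at -0.51 and Atp5b at -0.30. No target reached an adjusted p under 0.05 (limma). With the muscle score in the model 1 target was lower in KO, where the share of all genes passing was then 2.04%, and none was lower and 2 were higher in A537T, where that share was 5.88%. The medians were -0.44 and -0.06 in these fits. In KO at 10 weeks the score ran together with genotype, so the lower count of targets cannot be assigned to muscle RNA or to genotype. Seminal vesicle markers also separated these groups, with 6.55 to 10.3% in KO against 0.000808 to 4.64% in WT, and their part was not tested. Leaving out single libraries gave 11 to 19 lower targets in KO and 1 to 14 in A537T, the lowest without 15AF and 18AF and the highest without 10AF. In KO the share of all genes passing was 9.77% without 15AF and 37.0% without 10AF, so the count of targets moved with that share. The counts of A537T stand here without it. Without 10AF, 13 of the 27 were called in KO at an adjusted p under 0.05 (limma), in the fit that called 2886 of 15044 genes.

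At 30 weeks 3 targets were lower at an unadjusted p under 0.05 in each line, of 25 tested in KO and 26 in A537T, near the 11% and 13.6% of all genes. Acadl, of long-chain fatty acid oxidation, and Idh3a were lower without overlap in both. Acadl had 332 ± 38.0 (SD, n = 3) normalized counts in WT and 255 ± 17.8 in KO, a log2 fold change of -0.37 (adjusted p = 0.407, limma), and 332 ± 38.2 and 241 ± 6.36 in A537T, a log2 fold change of -0.45 (adjusted p = 0.272, limma). Idh3a had -0.50 and -0.35. Cox4i1 was lower in A537T (-0.28) and overlapped in KO (-0.14), while Atp5b overlapped in both (-0.07 and -0.11). None of the 25 targets was lower at an unadjusted p under 0.05 in KO without 2AF, 4AF or 6AF, or with the seminal vesicle score in the model, which left 4 lower targets in A537T. The share of all genes passing in those fits is not set beside these counts, so they cannot be read against the background.

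**Figure D5:**
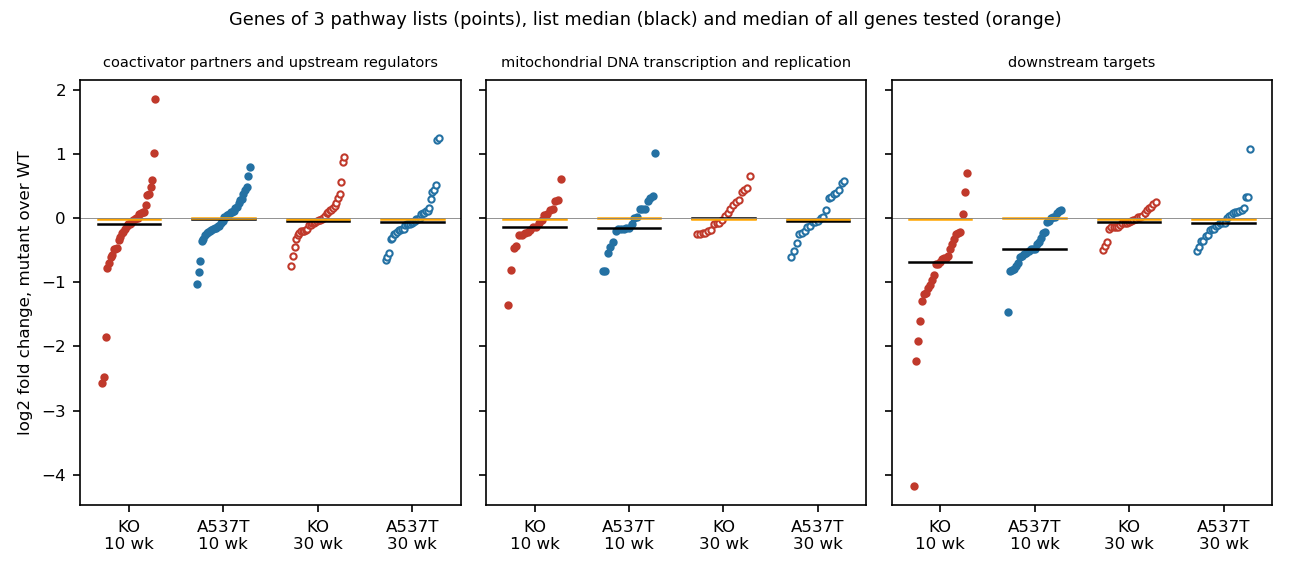
Log2 fold change (mutant over WT, limma) of each tested gene of 3 lists around the regulators, sorted within each comparison (KO red, A537T blue, filled at 10 weeks, open at 30 weeks), with the list median in black and the median of all genes tested in orange. The downstream targets lie lower at 10 weeks, with medians of -0.68 and -0.48, and the other lists stay within 0.15 of 0 by their medians.

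The genes most like each regulator across the 18 libraries were found by the Pearson correlation of log2(RPM + 1) among 11269 genes with a mean of at least 5 RPM, which share library, depth and tissue makeup. For Ppargc1a they were Svip (r = 0.91), Mllt3 (0.90) and Insig1 (0.89), and for Esrra Pmm1 (0.83), Bcl6 (0.77) and Slc25a33 (0.76). Nrf1 was most like Smc4 (0.84), Hacd4 (0.81) and Ddah2 (0.81), Gabpa most like Phlpp2 (0.89), Gm45222 (0.87) and Ephb4 (0.86), and Tfam most like Alg13 (0.70), Sec22a (0.69) and Zfp759 (0.68). Ppargc1b was below the level for this ranking. Among the members themselves, Ppargc1a ran against Nrf1 (-0.69) and Gabpa (-0.60), Nrf1 ran with Gabpa (0.52), and Ppargc1a and Esrra had 0.38. The coactivators Ppargc1a and Ppargc1b had -0.06.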

How the data were processed

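Total RNA of the ventral and lateral lobes was sequenced (Illumina NovaSeq). The authors trimmed reads with Trim Galore 0.4.1 and cutadapt 1.18, aligned them with STAR 2.7.3a to GRCm38.p6 with nuclear mitochondrial sequences masked, and quantified genes with Salmon in a strand-specific mode and tximport. In their 4 deposited tables, each of 6 libraries, the values (a signal unit) are gene-level counts that the authors had divided, library by library, by a size factor from DESeq2 1.26. Tables of the authors' own comparisons (mean count, shrunken log2 fold change, its error and s-value) were not used.

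Columns carry library labels without a replicate number. They were placed in groups, not matched to single samples, by the library ranges given for this work and because the tables of an age share only WT libraries. The recovered read numbers of a WT library differ between its 2 tables for 53.6 to 64.1% of genes, for reasons not given in the sources used here, so they are the counts behind each table and not 1 fixed set of reads; edgeR, DESeq2, depth and RPM rest on them, and WT RPM (reads scaled to a common library total) are the mean of both. Of 55469 gene IDs, 54450 matched GENCODE exactly and 55107 without versions, and 35 are mitochondrial symbols. Whole read numbers were recovered within each table: at least 99.99% of positive values in each column came to a read number within 0.1 of a whole one. In 4 columns 1 read was worth nearly 1, too close for an automatic check.

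The fit took genes averaging 10 or more normalized counts, on the scale log2(value + 1), in limma 3.58.1 (mean trend, R 4.3.3), with Benjamini-Hochberg adjustment over all genes, a threshold of 0.05 and no block. edgeR 4.0.16 (quasi-likelihood) and DESeq2 1.42.0 on recovered reads were alternatives, as were other pseudocounts, filters, scalings, tissue scores as covariates and leaving out each library. List counts under these alternatives were added after seeing the data. Age differences and coactivator ratios were tested by two-sided exact permutation. The fit was tested on simulated data. Python 3.11.15, numpy 2.4.6, pandas 2.3.3 and scipy 1.17.1 were used.

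The 6 genes and the pathway and marker lists were chosen with earlier results of these data known. From each pathway list, the text names the 3 genes with the smallest p whose groups did not overlap, per comparison, and the 2 most abundant. A gene under this rule is not reported here. The study states 3 mice of each line.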

Additional observations from a re-analysis of the deposited data

How the results depend on the processing

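No paired analysis was possible because the table columns carry no replicate number, and a replicate block was not run. Of 354 alternative values for the regulators' log2 fold changes, 327 kept their direction and their side of the threshold, 23 reversed and 4 passed the threshold in a fit where the reported value did not. Of 180 values for age differences 163 stayed the same, and of 312 list counts 204.

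The number of genes called in KO at 10 weeks was 1 without the mean trend, 714 with DESeq2 and 0 to 2886 when 1 library was left out. In A537T at 10 weeks it was 2 with a minimum mean count of 1, 2 without the mean trend, 90 with DESeq2 and 0 to 50 with 1 library left out. In KO at 30 weeks it was 280 with DESeq2 and 0 to 944, and in A537T at 30 weeks 3 with the seminal vesicle score, 473 with DESeq2 and 0 to 1224. The highest of each range came without 10AF, 10AF, 5AF and 8AF. Of the regulators, DESeq2 called 1 in KO at 10 weeks and 1 in A537T at 30 weeks, and leaving out 1 library gave 0 to 2 in KO at 10 weeks. The cause of these differences was not tested.

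Scaling to the same total moved the median of all genes by 0.20 in KO and 0.15 in A537T at 10 weeks. It turned Tfam in KO to 0.10 and Nrf1 in A537T to 0.10, both below that shift. Tfam in KO at 10 weeks was also 0.023 with edgeR and 0.019 with DESeq2. Ppargc1a in A537T at 10 weeks was 0.32 with the skeletal muscle score. With the seminal vesicle score, KO at 30 weeks gave 0.17 for Ppargc1a, -0.066 for Ppargc1b, -0.0889 for Gabpa and -0.0894 for Tfam, and A537T at 30 weeks gave -0.12 for Gabpa. Leaving out 1 library gave -0.54 to 0.17 for Tfam in KO and -0.14 to 0.044 for Nrf1 in A537T at 10 weeks. In KO at 30 weeks it gave -0.10 to 0.54 for Ppargc1b, -0.10 to 0.15 for Gabpa and -0.23 to 0.36 for Tfam, and in A537T at 30 weeks -0.61 to 0.051 for Ppargc1b, -0.057 to 0.086 for Gabpa and -0.14 to 0.078 for Tfam.

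For the change of an effect with age, scaling to the same total gave -0.18 for Nrf1 and -0.0018 for Tfam in KO and -0.074 for Ppargc1a in A537T, and quantile normalization -0.063 for Nrf1 in KO and -0.057 for Ppargc1a in A537T. Leaving out 1 library gave -0.15 to 0.18 for Nrf1, -0.23 to 0.014 for Gabpa and -0.12 to 0.64 for Tfam in KO, and -0.17 to 0.30 for Ppargc1a in A537T. For the coactivator log2 ratio at 10 weeks these ranges were -0.91 to 0.59 (KO) and -0.10 to 1.40 (A537T), and at 30 weeks -0.26 to 0.46 (A537T). Depth limits Ppargc1b most, with 12 to 90 reads in a library.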
